A study of Mus musculus with 6 samples.

Results

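The genes described here encode proteins of the red cell membrane that carry blood group antigens or move water, ions and gases: Rhag, Rhd, Ermap, Kel, Xk, Slc4a1, Gypc, Icam4 and Aqp1. They were taken by gene name from a table of read counts for 52459 genes, and all 9 names were found. Their expression was measured by RNA-seq in 6 libraries of mouse megakaryocytic-erythroid progenitors (MEP), marrow cells that give rise to platelet-forming megakaryocytes and to red cells. The libraries came from 3 pools of wild-type (WT) and 3 pools of Tmprss6-/- (KO) mice, with the cells of 3 mice in each pool. Tmprss6 is a liver protease whose loss raises hepcidin and makes the animals iron deficient, and the series title names iron deficiency as the condition under study. Cells had been sorted for cKit and CD150 and against lineage markers, Sca, Fc gamma receptors, CD105 and CD41. Each pool was sorted as 1 biological replicate, so p-values measure the spread between pools. The labels name the genotype only, and strain, age and sex are not stated in them.

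The Rh proteins form a complex in the red cell membrane in which Rhag, an ammonia channel glycoprotein, is needed to bring Rhd to the surface. The anion exchanger Slc4a1 (band 3) swaps chloride for bicarbonate and anchors the membrane to the skeleton beneath it, as does glycophorin C (Gypc) through a second complex. Kel, an endopeptidase that carries the Kell antigens, is joined by a disulfide bond to the membrane protein Xk. Ermap is an immunoglobulin-like protein of erythroid cells that carries the Scianna antigens, Icam4 is the Landsteiner-Wiener adhesion molecule, and Aqp1 is the water channel that carries the Colton antigens. In red cell formation, band 3 is made mainly in late erythroblasts, whereas Rhag appears earlier.

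Promoter sequences are shown for 4 of the genes because Rhag and Rhd were higher in KO in each pair of libraries, whereas Ermap and Kel, whose sequences hold the same kind of motif, were not. Each is the stretch of 250 bases before the RefSeq transcript start (build GRCm38.p6), written 5′ to 3′ on the gene's own strand. Capitals mark matches on either strand to a GATA hexamer, here AGATAA or its variants with T as the first base, G as the last base or both, the sequence that the erythroid factor Gata1 recognises. A CCNCNCCC match, of the kind read by Klf1, would also be in capitals, but these 4 stretches hold none.
Rhag (chr17:40810899-40811148, plus strand): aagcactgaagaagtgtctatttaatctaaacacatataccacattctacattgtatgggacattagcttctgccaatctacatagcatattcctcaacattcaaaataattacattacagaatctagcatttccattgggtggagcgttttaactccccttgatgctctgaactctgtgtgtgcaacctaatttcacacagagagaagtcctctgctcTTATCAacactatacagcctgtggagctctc
Rhd (chr4:134864286-134864535, plus strand): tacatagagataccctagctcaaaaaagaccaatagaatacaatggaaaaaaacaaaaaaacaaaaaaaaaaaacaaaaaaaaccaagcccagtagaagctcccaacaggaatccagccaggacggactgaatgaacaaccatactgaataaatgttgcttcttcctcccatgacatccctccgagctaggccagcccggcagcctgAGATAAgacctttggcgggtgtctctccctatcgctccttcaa
Ermap (chr4:119189996-119190245, minus strand): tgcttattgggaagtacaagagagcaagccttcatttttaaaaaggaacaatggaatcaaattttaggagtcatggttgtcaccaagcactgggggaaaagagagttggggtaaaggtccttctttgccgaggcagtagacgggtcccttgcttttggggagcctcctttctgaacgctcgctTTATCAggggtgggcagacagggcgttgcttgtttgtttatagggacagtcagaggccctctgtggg
Kel (chr6:41704326-41704575, minus strand): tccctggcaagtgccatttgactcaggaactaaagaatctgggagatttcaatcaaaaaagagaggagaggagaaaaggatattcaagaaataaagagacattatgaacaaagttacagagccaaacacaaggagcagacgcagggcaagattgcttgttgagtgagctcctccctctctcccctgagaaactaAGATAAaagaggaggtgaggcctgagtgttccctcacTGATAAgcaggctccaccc

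Sequences of this length were searched for 7 of the 9 genes, and those of Slc4a1 and Gypc were not used here. A GATA hexamer was present in 5 of the 7 (Rhag, Rhd, Ermap, Kel and Icam4), against 26.5% of all 32851 promoter stretches of that length. The single match lay 31 to 26 bases before the start in Rhag, 43 to 38 in Rhd and 67 to 62 in Ermap. Kel had a pair of matches, 56 to 51 and 19 to 14 bases before its start. CCNCNCCC was present in 3 of the 7 (Icam4, Xk and Aqp1), against 45.9% of all stretches, and 10 of the 13 overlapping matches in Xk came from 1 run of G. The E-box CANNTG was present in 3 of the 7, against 66.2%. A match is a description of letters and was not tested as a binding site. The sequences shown were picked by the levels of their genes, and Slc4a1 and Gypc, also higher in KO in each pair, had none used. A link between motif and genotype difference was not tested.

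**Figure D1:**
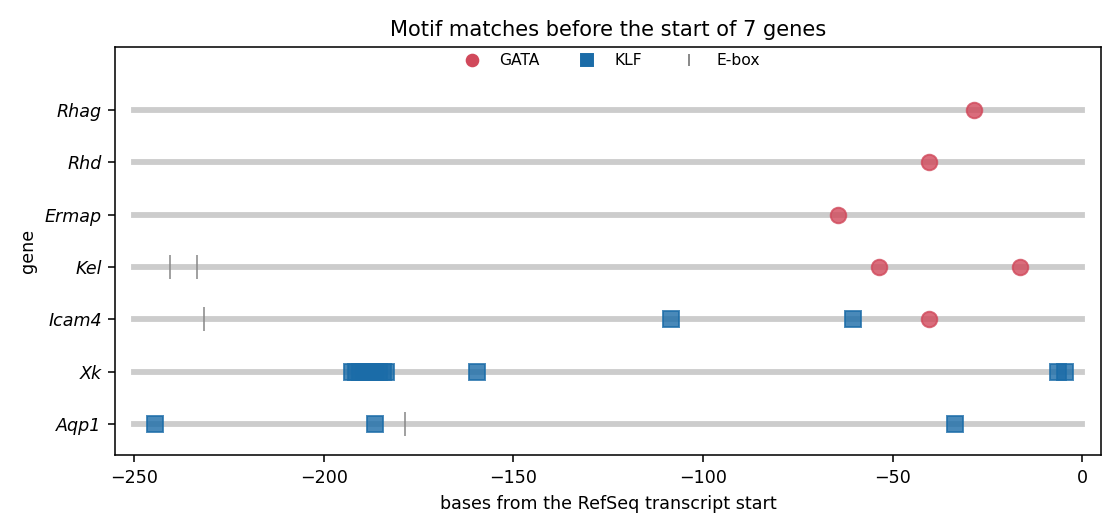
Motif matches in the 250 bases before the RefSeq start of 7 genes; the horizontal axis is the distance from the start in bases and each row is 1 gene. GATA hexamers (circles) lie within 67 bases of the start in Rhag, Rhd, Ermap, Kel and Icam4, and CCNCNCCC matches (squares, KLF) lie in Icam4, Xk and Aqp1; thin ticks are E-boxes.

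Total counts ran from 13402209 to 22986837 per library. Tmprss6 itself had 0 to 5 counts in any library, so its level checked no label. KO replicate 2 stood apart, with markers of other blood cells above every other library. Its 14 macrophage markers summed to 2860 CPM (counts scaled to a common library size) against 80.8 to 287 CPM elsewhere, and all 14 were highest there. Its 13 eosinophil, basophil and mast cell markers summed to 7830 CPM against 86.1 to 801 CPM. KO replicate 3 also carried lymphoid and plasma cell transcripts: the 12 markers of that list summed to 1280 CPM there and 1720 CPM in KO replicate 2, against 275 to 568 CPM in the other libraries, with Ighm at 562, Igkc at 385 and Jchain at 124 CPM in KO replicate 3. The sort marker Kit ranged from 316 to 1640 CPM and was highest in replicate 3 of both genotypes. Those libraries also had 351 and 175 counts of Xist, which is made in female cells, and at most 1 count of the Y-linked Ddx3y, against at most 1 and at least 872 counts in the other 4. The part of these other cells and of the replicate number in the differences between genotypes was not tested. For each of the 8 genes tested, the difference is given with and without KO replicate 2 and within pairs of libraries that carry the same replicate number. In sorted pools, more cells of a type and more RNA per cell cannot be told apart.

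Aqp1 was the highest of the 8 genes with counts in each library when levels were scaled to transcript length. Slc4a1 was the lowest of them in each library but KO replicate 2. In WT, Aqp1 stood at 443 ± 69.0 CPM per kilobase (SD, n = 3, as for all values in this form). It ranked between 62 and 262 of 13443 genes over the 6 libraries. Ermap (88.8 ± 31.6), Rhd (83.8 ± 44.9) and Gypc (83.2 ± 11.4 CPM per kilobase) followed, and these neighbours did not differ beyond their spread. Rhag (40.6 ± 5.76) and Kel (33.5 ± 7.15 CPM per kilobase) came next, again within their spread of each other but with every Rhag library below every Gypc library. Xk stood at 10.1 ± 3.93 and Slc4a1 at 1.04 ± 0.438 CPM per kilobase in WT. Both steps at the low end were larger than the spread, since no Xk library reached the lowest Kel library and no Slc4a1 library reached the lowest Xk library. In KO, Aqp1 stood at 388 ± 77.2 CPM per kilobase, followed by Rhd (150 ± 67.1), Gypc (100 ± 20.5), Ermap (97.1 ± 37.1) and Rhag (87.4 ± 33.7), the last 4 within their spread of each other. Kel (39.4 ± 15.6) and Xk (12.5 ± 7.24 CPM per kilobase) again had lower means. The highest KO library of Kel (54.9) was above the lowest of Ermap (54.7) and of Rhag (52.8), so Kel overlapped both. Slc4a1 had 3.00, 149 and 2.20 CPM per kilobase in KO replicates 1 to 3.

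**Figure D2:**
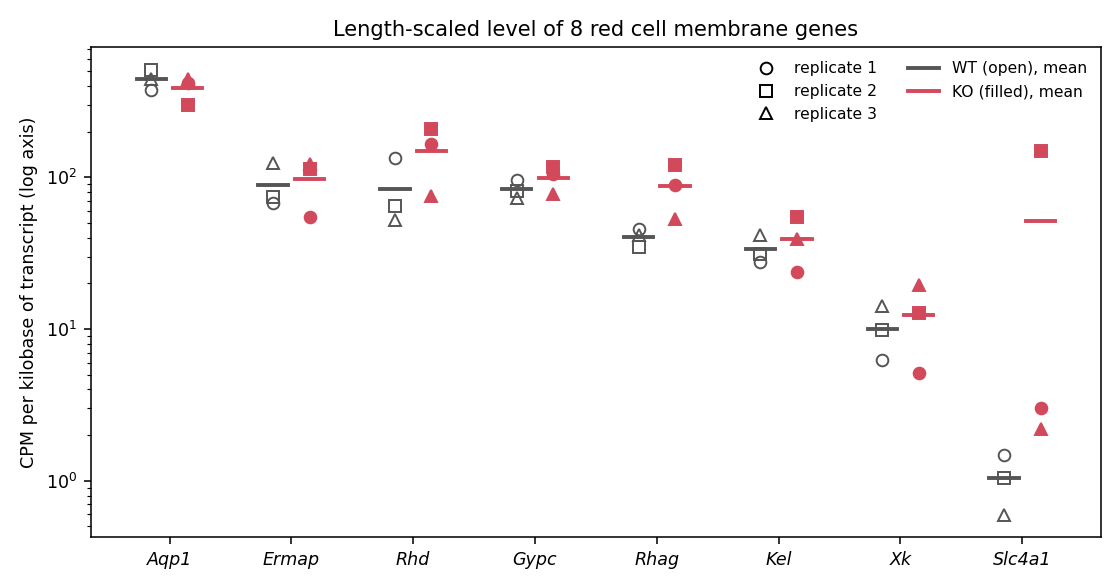
Level of 8 genes in CPM per kilobase of the longest annotated transcript (log axis), for WT (grey, open) and KO (red, filled); symbols are the libraries and bars the means of 3. Aqp1 is highest in both genotypes, the 3 Rhag symbols of KO lie above those of WT, and 1 KO library lifts the Slc4a1 mean.

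Of the 9 genes, 8 passed the filter on low counts and were tested, and 0 passed edgeR's adjusted threshold of 0.05 over the 6 libraries, where 0.0% of the 13453 genes tested did. At an unadjusted p under 0.05, 2 of the 8 were higher in KO (Rhag and Slc4a1) and 0 lower, against 1.53% and 0.208% of all genes (1.74% in either direction). DESeq2 called 0 of the 8 (1 at an unadjusted p under 0.05, with no p given for Slc4a1), where 0.0297% of genes were called higher and 0.0149% lower. DESeq2 with a replicate block also called 0 of the 8 (3 at an unadjusted p under 0.05), against 0.119% of genes called higher and 0.052% lower. Limma voom called 0 of the 8 (1 at an unadjusted p under 0.05) and 0 genes in all. Of all 13453 genes, 346 had an unadjusted p under 0.05 with DESeq2, 600 with DESeq2 and the block, and 97 with limma voom. The KO libraries lay wholly above the WT libraries in 2 of the 8 (again Rhag and Slc4a1), against 2.27% of all genes, and wholly below in 0, against 1.75%. Within the pairs, 4 of the 8 were higher in KO in 3 of 3 pairs (Rhag, Rhd, Slc4a1 and Gypc), against 11.5% of all genes, and 0 were lower in all pairs, against 13.3%. The log2 fold change was above 0 in 7 of the 8, against 49.3% of all genes. Its median over the 8 was 0.29, against -0.0048 over all genes. With KO replicate 2 left out, 5 of the 8 were above 0 and their median was 0.21 (all genes -0.003).

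**Figure D3:**
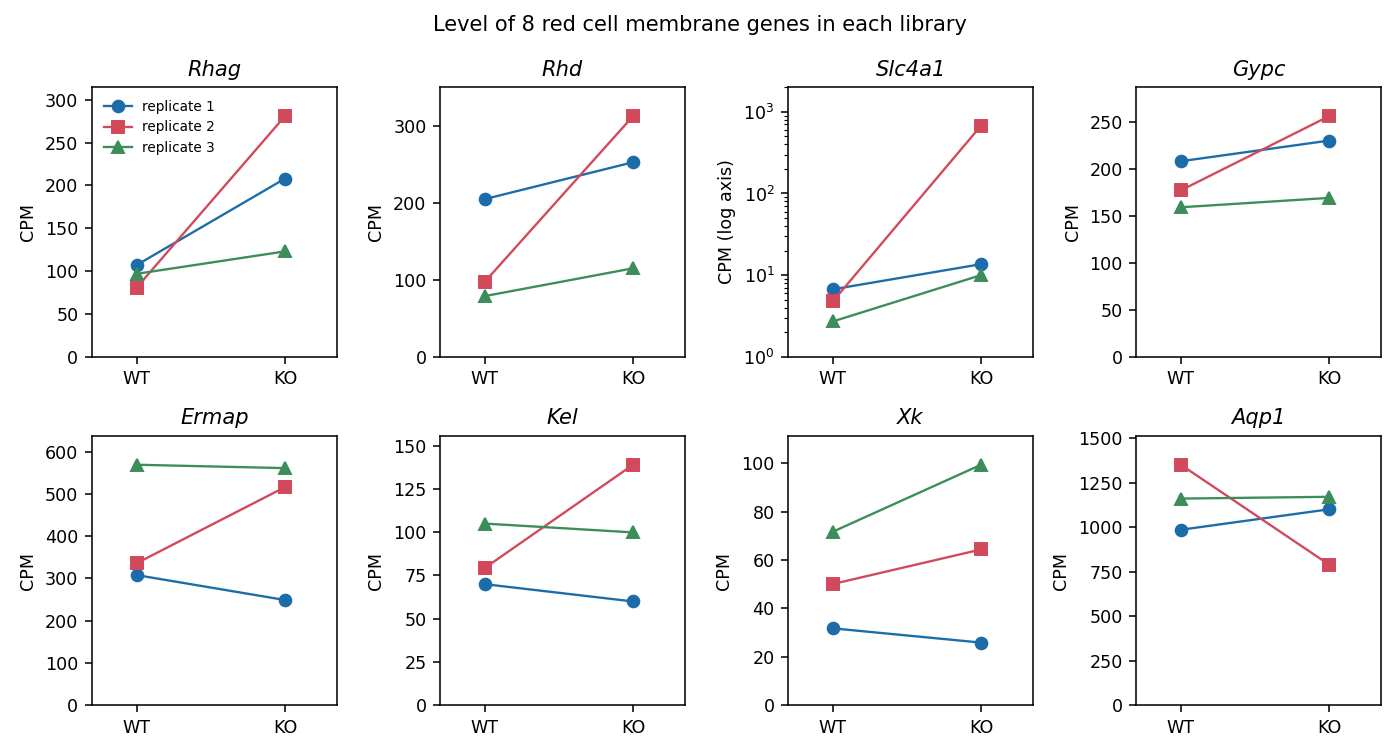
CPM of each gene in WT and KO, with lines joining libraries of the same replicate number; axes start at 0 except for Slc4a1, which has a log axis. Rhag, Rhd, Slc4a1 and Gypc go up in all 3 pairs, while Ermap and Kel go up in the pair numbered 2 only.

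Rhag (ENSMUSG00000023926, chromosome 17, 40811126 to 40840754, plus strand) was higher in every KO library than in any WT library. It stood at 107, 80.6 and 96.8 CPM in WT replicates 1 to 3 and at 208, 281 and 123 CPM in KO replicates 1 to 3. The WT libraries lay close together, and of the KO libraries replicate 3 was nearest to them. The difference was 2.15-fold over the 6 libraries (log2 fold change 1.11, SE 0.35, 95% interval 0.30 to 1.91, edgeR adjusted p = 1.00). Within pairs the log2 differences were 0.96, 1.80 and 0.35. When pairs 1 and 3 alone were fitted with the replicate number as a block, the difference was 1.58-fold and passed the threshold (log2 fold change 0.66, SE 0.14, edgeR adjusted p = 0.0339). That fit called 0.258% of genes as higher and 0.604% as lower, and Rhag was the only 1 of the 8 among them. At an unadjusted p under 0.05 it had 3 of the 8 higher, against 5.45% of genes, and 0 lower, against 7.74%. With 4 libraries it keeps 1 residual degree of freedom, so its error comes mostly from the spread shared over genes (14.5 prior degrees of freedom). On simulated counts that fit made more false calls than its threshold allows. Its adjusted p-values and intervals are thus to be read with caution, here and for the genes named later. It also called the plasma cell gene Jchain higher (log2 fold change 6.92, edgeR adjusted p = 2.1e-05), and 6 eosinophil, basophil and mast cell markers and 2 neutrophil markers lower. The part of those cells in the Rhag value was not tested. Without KO replicate 2 and without a block, the log2 fold change was 0.80 (edgeR adjusted p = 1.00). Over all alternatives the value ran from 0.66 to 1.36 and the adjusted p from 0.0339 to 1.00.

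Rhd (ENSMUSG00000028825, chromosome 4, 134864536 to 134896172, plus strand) stood at 205, 97.3 and 78.8 CPM in WT and at 253, 313 and 115 CPM in KO replicates 1 to 3. It was higher in KO in each pair, with log2 differences of 0.31, 1.68 and 0.54, but the groups overlapped because WT replicate 1 was above KO replicate 3. The 1.79-fold difference did not pass (log2 fold change 0.84, SE 0.49, 95% interval -0.30 to 1.97, edgeR adjusted p = 1.00), nor did the value of 0.42 in pairs 1 and 3 (edgeR adjusted p = 0.115). Single libraries moved it: the log2 fold change was 0.53 without KO replicate 2 and 1.36 without WT replicate 1. The ratio of Rhag to Rhd per kilobase was 0.340, 0.536 and 0.796 in WT and 0.533, 0.582 and 0.697 in KO. The KO ratios fell inside the range of the WT ratios, and KO was higher in pairs 1 and 2 and lower in pair 3. The log2 difference was 0.19, in a comparison too small to reach 0.05 (exact two-sided permutation p = 0.8, adjusted p = 1.00 over 5 ratios compared, n = 3, smallest possible p 0.1).

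Slc4a1 (ENSMUSG00000006574, chromosome 11, 102348824 to 102366203, minus strand) was low in 5 libraries and high in 1. By level per kilobase it ranked between 8720 and 11650 of 13443 genes in the 5, and 478 in KO replicate 2. Its counts were 145, 69 and 38 in WT and 223, 10895 and 136 in KO replicates 1 to 3. In CPM these were 6.69, 4.75 and 2.70 in WT against 13.6, 678 and 9.99 in KO, so KO replicate 2 stood far above the rest and the other KO libraries just above WT. The fitted difference over the 6 libraries (log2 fold change 5.62, SE 1.68, 95% interval 1.73 to 9.51, edgeR adjusted p = 1.00) rested on KO replicate 2. Without it the difference was 2.49-fold (log2 fold change 1.32, SE 0.46, edgeR adjusted p = 1.00). In pairs 1 and 3 with the block it was 2.68-fold (log2 fold change 1.42, edgeR adjusted p = 0.0551), just short of the threshold. DESeq2 gave no p-value for the gene over the 6 libraries.

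In KO replicate 2, Slc4a1 was also high relative to 2 other transcripts of late red cell formation. Its level per kilobase was 0.0575 of that of the globin gene Hbb-bs there, against 0.0114 to 0.0216 in the other libraries. Relative to Epb42, the protein 4.2 gene whose product binds band 3, Slc4a1 was at a ratio of 5.0 there and 0.395 to 1.40 elsewhere. Rhag stood at 0.806 of the Slc4a1 level in KO replicate 2, where in every other library it was 24.0 to 69.6 times as high. Both ratios of Slc4a1 to a late transcript overlapped between genotypes (two-sided exact permutation p = 0.7 and 0.2, adjusted p = 1.00 and 0.5 over the 5 ratios, n = 3, smallest possible p 0.1). For Rhag over Slc4a1, lower in every KO library than in any WT library, the exact permutation p was 0.1 (adjusted p = 0.5).

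Gypc (ENSMUSG00000090523) varied little. It stood at 208, 177 and 159 CPM in WT and at 230, 256 and 169 CPM in KO replicates 1 to 3, higher in KO in each pair but with overlapping groups. Its log2 fold change was 0.27 (SE 0.28, 95% interval -0.37 to 0.91, edgeR adjusted p = 1.00), and the 6 libraries lay within 1.61-fold of each other. Within pairs the log2 differences were 0.14, 0.53 and 0.09. The fitted value was 0.13 without KO replicate 2, 0.42 without KO replicate 3 and 0.12 in pairs 1 and 3. Mpp1, which encodes the p55 protein that binds glycophorin C, had the most similar profile of 11395 other coding genes, with a root mean square difference of 0.032 log2 units between the centred profiles. Mpp1 stood at 118, 95.5 and 88.8 CPM in WT and at 125, 143 and 96.8 CPM in KO.

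Ermap, Kel and Xk had their lowest library of each genotype in replicate 1. Ermap (ENSMUSG00000028644, chromosome 4, 119175457 to 119190011, minus strand) stood at 308, 336 and 569 CPM in WT and at 249, 516 and 561 CPM in KO replicates 1 to 3. Kel (ENSMUSG00000029866, chromosome 6, 41686330 to 41704339, minus strand) stood at 70.0, 79.3 and 105 CPM in WT and at 60.0, 139 and 99.9 CPM in KO. Xk (ENSMUSG00000015342, chromosome X, 9272756 to 9313250, plus strand) stood at 31.8, 50.1 and 71.7 CPM in WT and at 25.9, 64.4 and 99.4 CPM in KO. The groups overlapped in all 3 genes. Both libraries numbered 3 were above both numbered 1 in 4 of the 8 genes (these 3 and Aqp1), which 37.4% of all genes also showed, and below them in 2 (Rhd and Gypc), against 38.6%. Orders by replicate number were thus common over all genes.

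No genotype difference was resolved for these 3 genes. The log2 fold changes were 0.13 for Ermap (95% interval -0.81 to 1.07), 0.23 for Kel (-0.60 to 1.06) and 0.31 for Xk (-0.88 to 1.49), each with an edgeR adjusted p of 1.00. Without KO replicate 2 they were -0.00016, -0.086 and 0.29. Within pairs 1 to 3 the log2 differences were -0.31, 0.62 and -0.022 for Ermap, -0.22, 0.81 and -0.071 for Kel, and -0.29, 0.36 and 0.47 for Xk. Ermap and Kel were thus higher in KO in pair 2 only, and Xk in pairs 2 and 3. In pairs 1 and 3 the values were -0.17 for Ermap (95% interval -0.39 to 0.059), -0.15 for Kel (-0.40 to 0.10) and 0.10 for Xk. That fit draws its error mostly from the spread shared over genes, so these narrower intervals are to be read with caution. Kel per kilobase was 4.42, 3.18 and 2.94 times Xk in WT and 4.64, 4.33 and 2.02 times Xk in KO, so the ratio of these linked proteins' transcripts overlapped between genotypes (log2 difference -0.0090, two-sided exact permutation p = 1, adjusted p = 1.00 over the 5 ratios, n = 3, smallest possible p 0.1). Among the 8 genes, Ermap and Kel had the smallest difference between profiles (root mean square 0.21 log2 units), followed by Ermap and Xk (0.27) and by Rhag and Rhd (0.38). The difference is not scaled to how much a gene varies, so genes that vary little tend to give smaller values.

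Aqp1 (ENSMUSG00000004655, chromosome 6, 55336432 to 55348555, plus strand) stood at 985, 1350 and 1160 CPM in WT and at 1100, 789 and 1170 CPM in KO replicates 1 to 3. KO replicate 2 was the lowest library, and the other 5 ran from 985 to 1350 CPM. Aqp1 was the only 1 of the 8 that was lowest in KO replicate 2, where 18.6% of all genes were, while 5 of the 8 (Gypc, Kel, Rhag, Rhd and Slc4a1) were highest there, against 23.0% of all genes. The log2 fold change of Aqp1 was -0.19 (SE 0.30, 95% interval -0.90 to 0.51, edgeR adjusted p = 1.00), and in pairs 1 and 3 it was 0.082 (95% interval -0.11 to 0.28). It was -0.039 without KO replicate 2, so the lower level in KO rested on that library, and within pairs the log2 differences were 0.16, -0.77 and 0.011. Endothelial cells also express Aqp1. Of 10 endothelial markers, 6 had a count in every library. These were Tek (10.5 to 70.2 CPM), Pecam1 (22.3 to 65.7 CPM) and Plvap (19.1 to 54.6 CPM). At lower levels they were Tie1 (3.09 to 5.48 CPM), Kdr (0.461 to 5.34 CPM) and Emcn (0.142 to 1.53 CPM). Stab2 was at 23.0 CPM in KO replicate 2. Cdh5, Flt1 and Ptprb were at most 1.99, 0.373 and 1.31 CPM. The 10 endothelial markers together summed to between 72.2 and 198 CPM, and their part in the Aqp1 level was not tested.

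**Figure D4:**
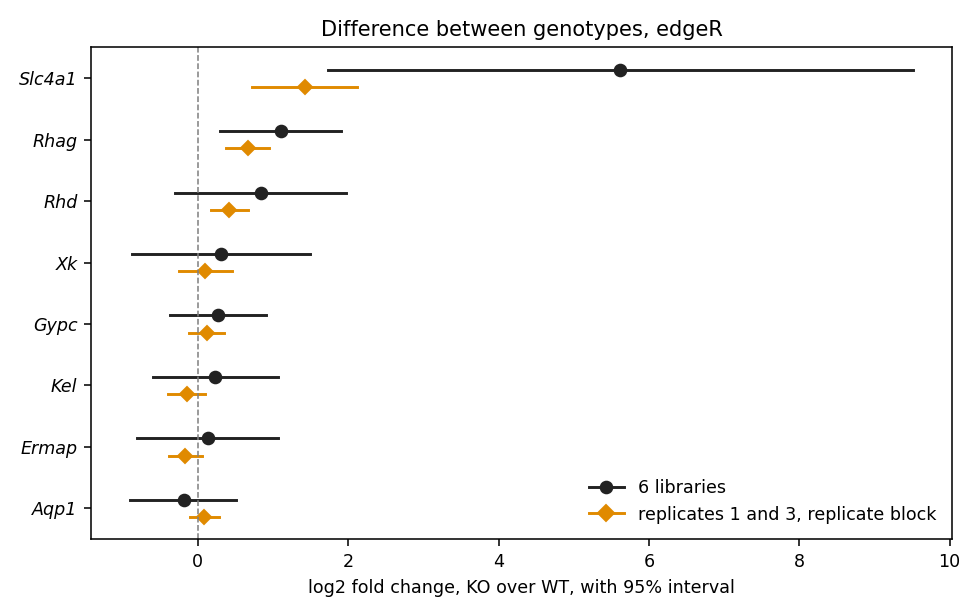
Log2 fold change of KO over WT with its 95% interval for 8 genes, from all 6 libraries (black circles) and from replicates 1 and 3 with the replicate number as a block (orange diamonds). The interval of Slc4a1 over 6 libraries spans 1.73 to 9.51. Intervals of Rhag and Slc4a1 lie above 0 in both fits, and that of Rhd in replicates 1 and 3 only. They are not adjusted for the number of genes tested, and those of replicates 1 and 3 are to be read with caution.

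Icam4 (ENSMUSG00000001014, chromosome 9, 21029373 to 21030595, plus strand) was listed at 0 counts in all 6 libraries. A floor of 3 counts corresponds to 0.138 to 0.220 CPM in these libraries. All 1110 of its exonic bases are shared with exons of Gm47079, an antisense RNA gene, in the GENCODE M21 annotation. The counts list AC159314.1 (ENSMUSG00000110790, chromosome 9, 21028307 to 21032357, minus strand) at this place, taken here to be the same gene. The library kit named in the labels does not mark the strand, so reads from Icam4 and from the antisense gene cannot be told apart there. The 0 counts therefore set no upper bound on the level of Icam4. AC159314.1 itself had 14, 4 and 9 counts in WT and 0, 5 and 8 in KO. The neighbour Icam1, an adhesion molecule of many cell types, had 131 to 535 counts. The other 8 genes share no exonic base with another annotated gene.

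Genes whose profile over the 6 libraries was closest to each member were found by the root mean square difference of centred log2 CPM, and these likenesses are descriptions over 6 libraries that share depth and cell content. For Rhag these were the mitotic kinesin genes Kif14 and Kif22 (0.13 log2 units each) and for Rhd the cyclin genes Ccnb1 and Ccne1 (0.13 each). Kif22 stood at 67.2, 48.0 and 59.7 CPM in WT and at 101, 163 and 79.4 CPM in KO, the same order of libraries as Rhag. For Slc4a1 they were the chemokine gene Ccl6 (0.54), a myeloid transcript, and Alas2 (0.60), whose enzyme makes the first precursor of heme in erythroid cells. Ccl6 was at 279 CPM and Alas2 at 333 CPM in KO replicate 2, against at most 11.4 and 19.4 CPM in the other libraries. Ermap was closest to Slc25a42 (0.034), Kel to Brca2 and Hps3 (0.054 each), Xk to Hif1a (0.074) and Aqp1 to Fbl (0.038). These differences are not scaled to each member's own spread, which was 0.25 log2 units for Gypc and 2.59 for Slc4a1. They do not rank likeness across members.

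The wider set of blood group carriers was near evenly split. Of 25 such genes 20 were tested, 9 higher and 11 lower in KO with a median log2 fold change of -0.016 (-0.10, with 8 of 20 higher, without KO replicate 2), and 0 passed edgeR's threshold (1 at an unadjusted p under 0.05, and 0 by DESeq2). Slc29a1, the nucleoside transporter that carries the Augustine antigen, stood at 98.5, 68.3 and 78.5 CPM in WT and at 145, 159 and 113 CPM in KO, with no overlap. Its log2 fold change was 0.77 over the 6 libraries and 0.66 without KO replicate 2. It passed in pairs 1 and 3 at 0.54 (edgeR adjusted p = 0.0364), as did the lower level of the mechanosensitive channel gene Piezo1 at -1.02 (edgeR adjusted p = 0.0204), where 0.258% of genes were called higher and 0.604% lower. Piezo1 was at 18.3, 45.5 and 81.7 CPM in WT and at 11.9, 58.6 and 31.7 CPM in KO, so pair 2 had the opposite direction.

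Of 17 other channels, pumps and transporters of the red cell, 11 were higher and 6 lower in KO (median log2 fold change 0.31, and 0.11 without KO replicate 2), and 0 passed edgeR's threshold (1 at an unadjusted p under 0.05, and 0 by DESeq2). The potassium chloride cotransporter gene Slc12a4 was at 15.1, 12.3 and 20.6 CPM in WT and at 23.8, 28.8 and 27.3 CPM in KO. Tspo2, an erythroid cholesterol-binding protein, had the opposite order, at 226, 239 and 172 CPM in WT and 164, 149 and 141 CPM in KO. Neither pair of groups overlapped, as for 2.27% of all genes in the higher and 1.75% in the lower direction, and neither gene passed. Slc40a1 encodes ferroportin, the iron exporter, which is abundant in macrophages, and was at 930 CPM in KO replicate 2 and at 117 to 218 CPM elsewhere.

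Of 16 membrane skeleton genes, 13 were higher in KO over the 6 libraries (median log2 fold change 0.26, with 0 past edgeR's threshold, 4 at an unadjusted p under 0.05 and 0 by DESeq2), but 9 of 16 without KO replicate 2 (median 0.11). Of all genes, 49.3% were higher and 1.53% were higher at an unadjusted p under 0.05. Sptb, the beta spectrin gene, was at 129 CPM in KO replicate 2 and at 2.44 to 9.40 CPM elsewhere, and Epb42 at 123 CPM against 5.24 to 12.8 CPM. These are steep but smaller steps than that of Slc4a1, at 678 against 2.70 to 13.6 CPM. The late erythroblast list, 19 of whose 20 genes were in the table, was higher in 16 of 19 (median 1.16, with 0 past edgeR's threshold, 8 at an unadjusted p under 0.05 and 1, Trim10, by DESeq2). The same shares of all genes stand beside these counts, with 0.0297% called higher by DESeq2. Without KO replicate 2 it was higher in 13 of 19 (median 0.36). In pairs 1 and 3 5 of its members passed as higher, against 0.258% of genes. These were Hbb-bs, Hba-a1, Hbb-bt, Alas2 and Trim10, with log2 fold changes of 1.68, 1.3, 1.29, 1.93 and 1.88 and edgeR adjusted p of 0.000116, 0.00015, 0.0158, 0.00948 and 0.0497. Jchain and the myeloid markers named beside Rhag were called in that fit too. The globin genes have near-identical paralogs, so their counts are uncertain.

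Of 10 erythroid transcription factor genes, 4 were higher and 6 lower in KO (median log2 fold change -0.074, and -0.034 with 5 higher without KO replicate 2), 0 passed edgeR's threshold, 0 had an unadjusted p under 0.05, and DESeq2 called 0. Gata1, the factor that binds GATA motifs, ranged from 443 to 610 CPM over the WT libraries and from 381 to 594 CPM over the KO libraries, and Klf1 from 506 to 665 CPM and from 468 to 693 CPM. Lmo2 and Nfe2, also on this list, were lower in KO without overlap, as for 1.75% of all genes. Lmo2 had a WT range of 403 to 468 CPM and a KO range of 313 to 403 CPM, the nearest libraries being equal when rounded. For Nfe2 the WT and KO ranges were 793 to 802 CPM and 493 to 790 CPM. Neither passed the threshold (log2 fold changes -0.28 and -0.30, and -0.18 and -0.14 without KO replicate 2).

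**Figure D5:**
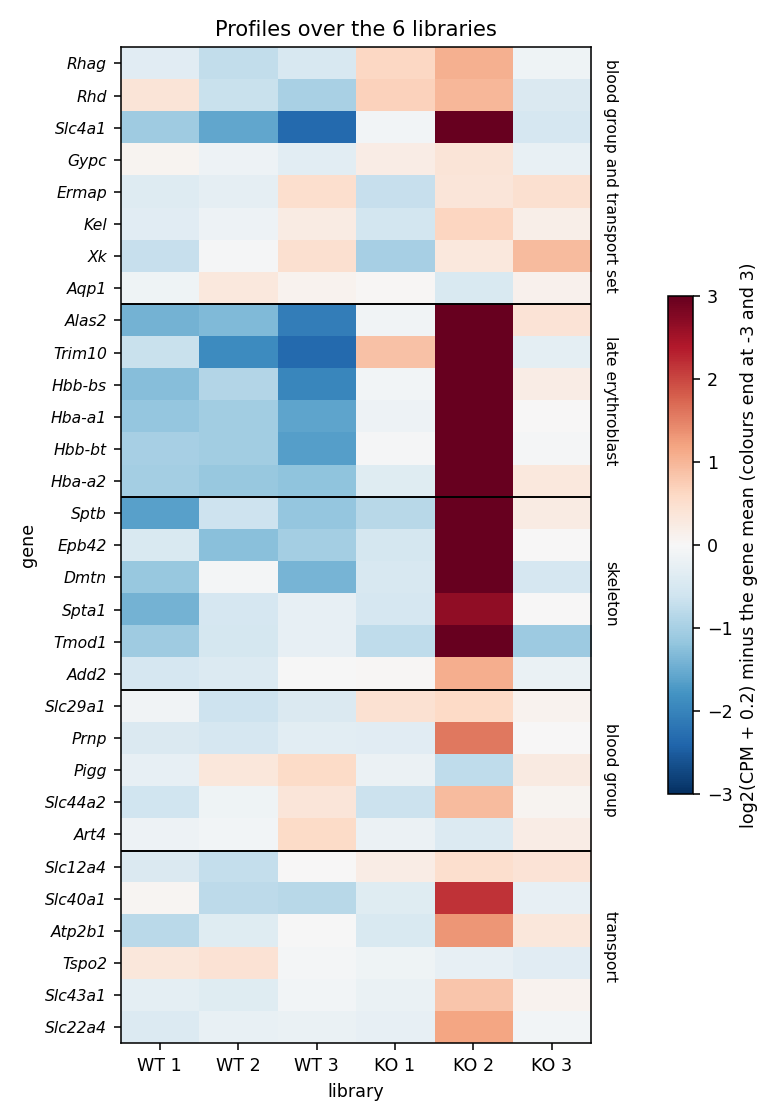
Heat map of log2(CPM + 0.2) minus each gene's mean over the 6 libraries (columns) for the blood group and transport genes and for up to 6 genes of smallest p in each of 4 related lists (rows); colours end at -3 and 3. Slc4a1 shares its dark KO 2 cell with late erythroblast and skeleton genes. Rhag and Rhd are raised in KO 1 as well, Rhd also in WT 1, and Ermap, Kel, Xk and Aqp1 show no such step.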

How the data were processed

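MEP were sorted from pooled mice, and their RNA was converted to cDNA with the SMART-Seq v4 kit and tagged with Nextera XT, per the labels' protocols. The deposited values are raw read counts per Ensembl gene. FastQC 0.11.5, STAR 2.5.3a and edgeR are named in the submitters' processing notes, beside the mouse build GRCm38.p3 and a human build. The read counter, its strand setting and its handling of overlapping genes: not given in the sources used here. Spans of the 9 genes equal those in GENCODE M21 (GRCm38), from which the longest transcript of each gene gave its length.

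Genes were filtered with filterByExpr (minimum count 10, minimum total 15), which kept 13453 of 52459 genes. Counts were scaled by TMM and compared with the quasi-likelihood test of edgeR 4.0.16 in R 4.3.3, two-sided, with Benjamini-Hochberg adjustment over all genes tested and a threshold of 0.05. CPM use TMM-scaled library sizes, log2 CPM add a prior count of 2, and folds are KO over WT. Fits were tested on simulated counts with known changes: the fit of 6 libraries recovered few of the changes, and the fit of pairs 1 and 3 recovered more but made more false calls than its threshold allows. Alternatives were DESeq2 1.42.0, limma 3.58.1 (voom), other scalings and filters, a replicate block, and leaving out each library.

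The replicate numbers 1 to 3 occur in both genotypes. For each number, the WT and KO libraries' departures from their group means in log2 CPM were correlated across 13453 genes, at 0.532, 0.161 and 0.633. Each is over 0.1, so the numbers were taken to pair the libraries, although what a number marks is not stated. This was a working rule and not a test, and the likeness was weakest for replicate 2. The 9 genes, the related lists and the fit of pairs 1 and 3 were chosen with earlier results of these data known. The rule for genes named in the text was the 9 genes, up to 4 genes of smallest p per related list plus those called in pairs 1 and 3, and the 2 closest profiles per gene, of which some are left out; 1 that the rule names is not reported here. Gata1, Klf1, Ackr1, the Icam4 neighbours and cell markers are given as context and were chosen after their values were seen.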

Additional observations from a re-analysis of the deposited data

How the results depend on the processing

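The count of the 8 tested genes past the threshold was 0 in 17 of 18 alternatives and 1 (Rhag) in the fit of pairs 1 and 3 with the replicate block. Over all genes the count was 0 in 16 of 19 alternatives, 6 with DESeq2, 23 with DESeq2 and the replicate block, and 117 in pairs 1 and 3 with the block. Other blood group carriers had 2 calls in pairs 1 and 3, and late erythroblast genes 5 there and 1 with DESeq2. Leaving out any 1 library gave 0 to 0 calls for each list. The replicate block over all 6 libraries called 0 genes and changed no call. Rhag, Rhd, Slc4a1 and Gypc kept their direction in all 18 alternatives. Ermap reversed to -0.17 in pairs 1 and 3 with the block, and its values ran from -0.089 to 0.46 when single libraries were left out, with -0.041 without WT replicate 1, -0.00016 without KO replicate 2 and -0.089 without KO replicate 3. Kel reversed to -0.15 in pairs 1 and 3 and, with single libraries left out, ran from -0.086 (without KO replicate 2) to 0.49. Xk ran from -0.19 (without KO replicate 3) to 0.67, and Aqp1 reversed to 0.082 in pairs 1 and 3. Piezo1 ran from -1.16 to 0.092 without WT replicate 3. The cause was not tested. The median log2 fold change of all genes lay between -0.029 and -0.0037 under the other scalings.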

Other observations

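Icam4 was not alone among genes that lie wholly within the exons of another. In GENCODE M21, 144 protein-coding genes of the table share every exonic base with another annotated gene on either strand. Of these, 139 (96.5%) had 0 counts in all 6 libraries, against 5191 of 15396 protein-coding genes (33.7%) that share none.

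Ackr1, the Duffy antigen receptor, did not pass the filter. It was at 12.6 CPM in KO replicate 2 and at most 0.876 CPM in the other libraries.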
